A study of Homo sapiens with 8 samples.

Results

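The mitochondrial carriers are 44 genes of the 14526 in the expression table, chosen by symbol as every row named SLC25A followed by a number, plus UCP2 and UCP3. The fall of UCP2 in these libraries led to the choice of the family, so the values of UCP2 are given as a description with no test. GENCODE release 44 holds 50 carrier genes with such symbols, and 6 of them (SLC25A2, SLC25A18, SLC25A31, SLC25A41, SLC25A47 and SLC25A52) had no row. RNA of cultured human cells labelled as the liver carcinoma line HepG2, all grown in DMEM with 10% FBS, was sequenced from 4 control samples and from 4 samples that received 10 mM sodium benzoate (SB), a food preservative, for 24 h. The authors describe each group as 4 biological replicates. The question behind the comparison was which transcripts changed in SB-treated cells, in which benzoyl groups are placed on histone lysines. Levels are RPKM, that is, reads scaled to gene length and sequencing depth, with libraries scaled by the trimmed mean of M-values (TMM). Fold changes are differences of log2(RPKM + 1), SB-treated minus control, which understate the change of genes at low RPKM. A gene was called when its Benjamini-Hochberg adjusted p-value over all 14526 genes, from limma, was below 0.05.

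Mitochondrial carriers are small proteins built from repeats of the same fold, and most sit in the inner mitochondrial membrane and exchange a metabolite, nucleotide, cofactor or ion between the cytosol and the matrix. They tie liver pathways together: citrate leaves for fatty acid synthesis, aspartate and ornithine move for the urea cycle, and ADP enters for ATP to leave. Uncoupling proteins are members of the same family. UCP1 of brown fat lets protons return without ATP synthesis, and UCP2 is known to export dicarboxylates such as malate and aspartate and to modulate the use of glucose and glutamine.

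The labelled liver line was checked against its defining markers. Of 20 hepatocyte genes examined, 3 had a row, all with control means under 1 RPKM, and all 3 were called higher in SB-treated cells with groups that did not overlap. Of all genes, 33% were called higher and 31% had every SB-treated value above every control value. Genes this low in control samples pass the authors' floor of more than 1 CPM more easily when SB-treated values are higher. The floor thus favours rises among them. TF went from 0.192 ± 0.0188 to 0.379 ± 0.0748 RPKM (0.21, limma adjusted p = 0.00187) and CYP2E1 from 0.188 ± 0.055 to 0.68 ± 0.104 RPKM (0.50, limma adjusted p = 2.79e-05; SD, n = 4). Their part in the carrier results was not tested. ALB, AFP and APOA1, which define cells of this line, had no row. Hence the cells are named here only as the labels name them. Of 8 genes of other cell types, 3 had a row. COL1A1 had a control mean of 4.86 RPKM and an SB-treated mean of 4.1 RPKM, COL3A1 of 2.49 and 1.5 RPKM, and LUM of 0.347 and 0.61 RPKM. COL3A1 was called lower (limma adjusted p = 3.35e-05), LUM higher (limma adjusted p = 0.00803), and COL1A1 was not called (limma adjusted p = 0.133). Libraries held between 36990091 and 44878446 reads on these genes. Control replicate 1 stood apart, with a median absolute deviation over the 44 carriers of 0.183 on the log2 scale from the mean of the other 3 control samples, against 0.071 to 0.075 for the other control samples and 0.03 to 0.04 for the SB-treated samples. GC content accounted for 53.2% of the variance of its deviations over genes, against 23.6% to 34.9% in the other control samples. For those other control samples, both measures use a mean that includes control replicate 1, so both carry part of its deviation. The part of its deviation and of GC content in the results was not tested. Results are given without control replicate 1 where this changes them.

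**Figure D1:**
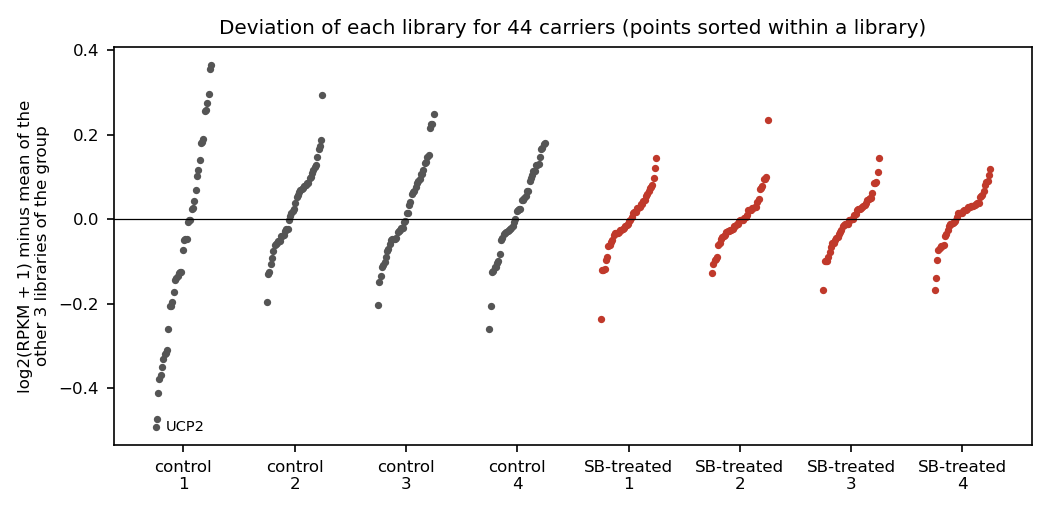
Deviation of each of 44 carriers, as log2(RPKM + 1) minus the mean of the other 3 libraries of its group (vertical axis), for each of the 8 libraries (horizontal axis), with points sorted within a library. Control replicate 1 spreads from -0.49 for UCP2 to 0.36 for SLC25A46, and the other libraries spread less.

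The 250 bases before the RefSeq start of UCP2 and of its neighbour UCP3 are shown, followed by those of SLC25A1, the citrate carrier, whose transcript fell. UCP3 was higher in SB-treated cells but has a row only through the SB-treated samples, so no contrast in direction with UCP2 is drawn. All 3 genes lie on the minus strand of GRCh38.p14, and each sequence reads 5′ to 3′ toward the gene. Capitals mark the letters GGGCGG (the GC box) and the CCAAT box, searched on both strands together with the E-box letters CACGTG, the TATA box letters TATAAA and the cAMP response element TGACGTCA. The windows are chr11:73982844-73983093 for UCP2, chr11:74009086-74009335 for UCP3 and chr22:19178737-19178986 for SLC25A1.
UCP2: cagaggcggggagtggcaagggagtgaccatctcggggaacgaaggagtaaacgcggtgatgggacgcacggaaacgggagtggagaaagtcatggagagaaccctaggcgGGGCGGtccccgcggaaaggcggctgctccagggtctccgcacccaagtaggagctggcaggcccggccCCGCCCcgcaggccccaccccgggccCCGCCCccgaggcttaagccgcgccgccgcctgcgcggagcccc
UCP3: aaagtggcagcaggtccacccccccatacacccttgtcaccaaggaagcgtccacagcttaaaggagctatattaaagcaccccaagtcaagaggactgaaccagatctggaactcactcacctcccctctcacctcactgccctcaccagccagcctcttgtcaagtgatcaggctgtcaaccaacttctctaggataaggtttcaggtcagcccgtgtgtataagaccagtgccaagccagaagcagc
SLC25A1: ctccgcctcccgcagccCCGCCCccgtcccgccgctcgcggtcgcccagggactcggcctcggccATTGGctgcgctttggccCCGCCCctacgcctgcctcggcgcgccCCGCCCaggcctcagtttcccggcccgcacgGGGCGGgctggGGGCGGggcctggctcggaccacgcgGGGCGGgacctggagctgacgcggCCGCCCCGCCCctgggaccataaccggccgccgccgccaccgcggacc
The UCP2 window held 3 GC boxes and a GC content of 72%, whereas the UCP3 window held none of the 5 motifs at 53.2% GC. The SLC25A1 window held 8 GC boxes, some of which overlap, and 1 CCAAT box at 81.6% GC. Of the 44 carriers, 38 had a window in the RefSeq table. These 38 are genes above the expression floor, whereas the 35116 windows were not limited to the 14526 genes with a row. The shares that follow therefore compare unlike sets, and no trait of the carriers is drawn from them. A GC box was found in 30 of them (78.9%), against 42.6% of all 35116 windows, and a CCAAT box in 17 (44.7%), against 32%. The E-box was in 7 windows (18.4%, against 6.34% of all), the TATA box in 1 (2.63%, against 10.7%) and the cAMP response element in 2 (5.26%, against 1.65%). A match of these letters is not a measured binding site.

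The uncoupling group contains UCP2, UCP3 and 3 relatives, SLC25A14, SLC25A27 and SLC25A30. Among them UCP2 was lower in SB-treated cells, SLC25A30 fell, UCP3 rose from a very low level, and SLC25A14 and SLC25A27 were not called. UCP2 lies at chr11:73974672-73982843 and UCP3 at chr11:74000277-74009085 (GENCODE release 44, hg38), with 17433 bases between them. UCP2 measured 43.4, 62.2, 60.5 and 61.5 RPKM in control replicates 1 to 4 and 11.9, 12.1, 12.2 and 12.9 RPKM in SB-treated replicates 1 to 4. The groups were far apart, and the lowest control sample, replicate 1, was still above every SB-treated sample. Mean levels were 56.9 ± 9.05 RPKM (SD, n = 4) and 12.3 ± 0.434 RPKM (SD, n = 4), which is 4.62-fold lower in SB-treated cells. The difference was -2.11 on the log2(RPKM + 1) scale, and -2.23 without control replicate 1. With all libraries it was the lowest of all 14526 genes on this scale, which understates changes at low RPKM. Ranks on other scales were not taken. No stretch of 50 bases of the main UCP2 transcript occurred in the transcripts of another gene. By level UCP2 was the 7th carrier in every control sample, and it stood at 20 or 21 in the SB-treated samples.

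UCP3, a close relative that is best known from skeletal muscle, was detected at 0.169, 0.138, 0.177 and 0.126 RPKM in the control samples. The SB-treated samples had 0.358, 0.317, 0.366 and 0.29 RPKM. All SB-treated values lay above all control values, but they rest on 18 to 25 reads per control sample and 44 to 54 reads per SB-treated sample. With 18 to 25 reads among at least 36990091, each control sample was below the authors' floor of more than 1 CPM. UCP3 thus has a row only through the SB-treated samples, where it is higher. Its call and the lack of overlap are therefore no independent support for a rise. The mean rose 2.18-fold, from 0.153 ± 0.024 to 0.333 ± 0.0358 RPKM (SD, n = 4). On the log2(RPKM + 1) scale the rise was 0.21 (SE 0.035, limma adjusted p = 0.000501), and with voom on the recovered reads, a scale with no pseudocount of that size, it was 1.11 (SE 0.16, adjusted p = 9.13e-05). Within a library, UCP2 was between 257 and 487 times UCP3 per length in control samples and between 33.2 and 44.6 times in SB-treated samples.

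SLC25A30, a carrier related to the uncoupling proteins and reported in kidney, fell. Its levels were 15.7, 13.8, 14 and 13.4 RPKM in control samples and 9.29, 9.16, 9.3 and 9.47 RPKM in SB-treated samples. The groups did not overlap, and the level fell by 0.56 on the log2 scale (SE 0.048, limma adjusted p = 7.91e-06). SLC25A14, a brain-enriched relative, had 10.1, 9.12, 9.49 and 9.39 RPKM in control samples and 10.5, 10.1, 9.55 and 10.3 RPKM in SB-treated samples. These groups overlapped, and the difference of 0.08 was not called (limma adjusted p = 0.125). SLC25A27, also enriched in brain, had 5.19, 4.27, 4.4 and 3.86 RPKM in control samples and 4.98, 4.81, 5.16 and 4.33 RPKM in SB-treated samples. Here too the groups overlapped, with a difference of 0.10 (limma adjusted p = 0.238). Both would be called higher if control replicate 1 were left out, at 0.10 (adjusted p = 0.0206) for SLC25A14 and 0.17 (adjusted p = 0.018) for SLC25A27, without the TMM factors, at 0.17 (adjusted p = 0.00335) and 0.19 (adjusted p = 0.0394), and under a correction for GC content and length chosen after seeing the data, at 0.24 (adjusted p = 9.36e-05) and 0.19 (adjusted p = 0.0102).

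**Figure D2:**
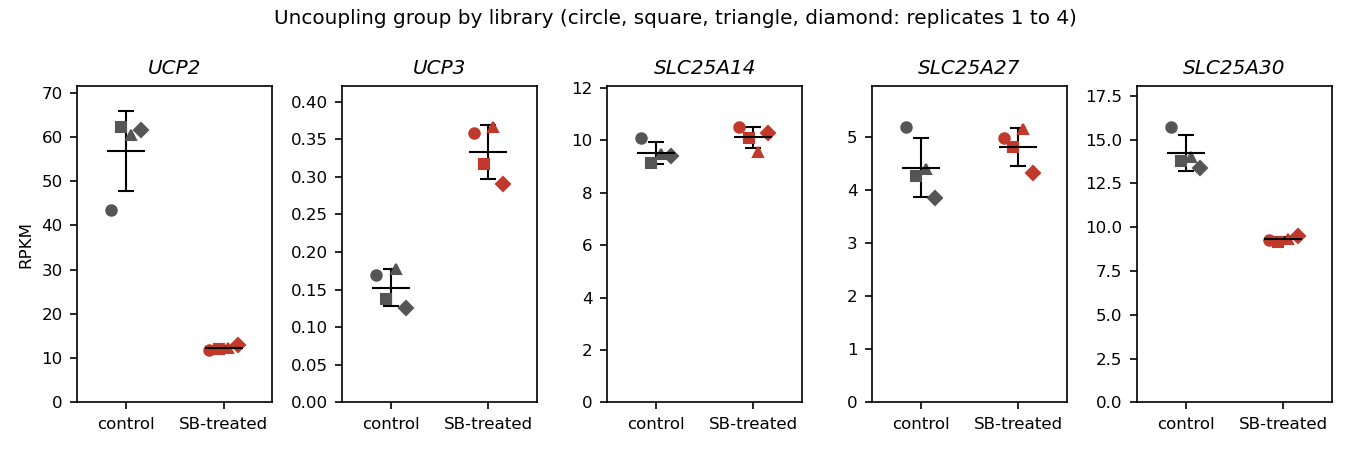
RPKM of the 5 genes of the uncoupling group (vertical axes from 0, one scale per gene) in 4 control and 4 SB-treated libraries, with the mean (long bar) and SD (error bars). The SB-treated UCP2 values of 11.9 to 12.9 RPKM lie below all control values, and the UCP3 values move the other way.

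Counted over the family, 8 of 44 carriers (18.2%) were called higher and 16 (36.4%), UCP2 among them, lower in SB-treated cells, and 20 were not called. Of all genes, 33% were called higher and 32.6% lower. UCP3, which has a row only through the SB-treated samples, is among the 8 called higher. The fall of UCP2 led to the choice of the family, so its place in these counts is description only. Without UCP2, 8 of 43 (18.6%) were called higher and 15 (34.9%) lower. On the log2(RPKM + 1) scale with TMM, 0 carriers were called with a rise of at least 0.5, against 5.12% of all genes, although UCP3 rose by more than that with voom and SLC25A22 by 0.557 without the TMM factors. On the same scale 5 of 44 were lower by at least 0.5 (UCP2, SLC25A1, SLC25A11, SLC25A30 and SLC25A32), or 4 of 43 without UCP2, against 5.45% of all genes. This count too depended on the scaling. Without the TMM factors SLC25A11 (-0.496), SLC25A30 (-0.466) and SLC25A32 (-0.418) missed that threshold. SLC25A32 also missed it without control replicate 1 (-0.453) and with the GC content and length correction (-0.438). All 4 SB-treated values lay above all 4 control values for 5 carriers (11.4%), UCP3 among them, against 31% of all genes. They lay below all 4 control values for 14 carriers (31.8%), against 30.5%. Without UCP2 they lay below for 13 of 43 (30.2%). The median difference was -0.057 over the carriers, -0.047 over the carriers without UCP2, and 0.005 over all genes. The split between higher and lower depended on the scaling. Without the TMM factors 17 carriers (38.6%) were called higher and 11 (25%) lower, against 43% and 23.1% of all genes, so that 60.7% of the carrier calls were higher in place of 33.3%. The median was then 0.045 over the carriers and 0.079 over all genes. With the GC content and length correction 14 carriers (31.8%) were called higher and 16 (36.4%) lower, against 34.5% and 36.9% of the 14113 genes with a GC value, and 46.7% of the carrier calls were higher. The carrier median turned to 0.017 under this correction, above the -0.005 of all genes. Without control replicate 1 the counts were 12 higher (27.3%) and 21 lower (47.7%), against 37.6% and 37.9% of all genes. Of the 24 calls, 14 held under all 15 alternatives, 4 higher (SLC25A12, SLC25A22, SLC25A42 and SLC25A53) and 10 lower. UCP2 is among the 10, and that it held is no support, since its fall led to the choice. The call of UCP3 held under the 14 alternatives in which it was tested, since its level was below the filter of a mean of at least 1 RPKM. All of these share the row that UCP3 has only through the SB-treated samples. Carriers that were not called here gained a call under some settings. Without the TMM factors, 9 were called higher (SLC25A14, SLC25A16, SLC25A27, SLC25A28, SLC25A40, SLC25A43, SLC25A44, SLC25A45 and SLC25A51). The GC content and length correction added 12, with SLC25A4, SLC25A6, SLC25A10, SLC25A21 and SLC25A23 lower and SLC25A14, SLC25A16, SLC25A27, SLC25A28, SLC25A40, SLC25A43 and SLC25A48 higher.

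**Figure D3:**
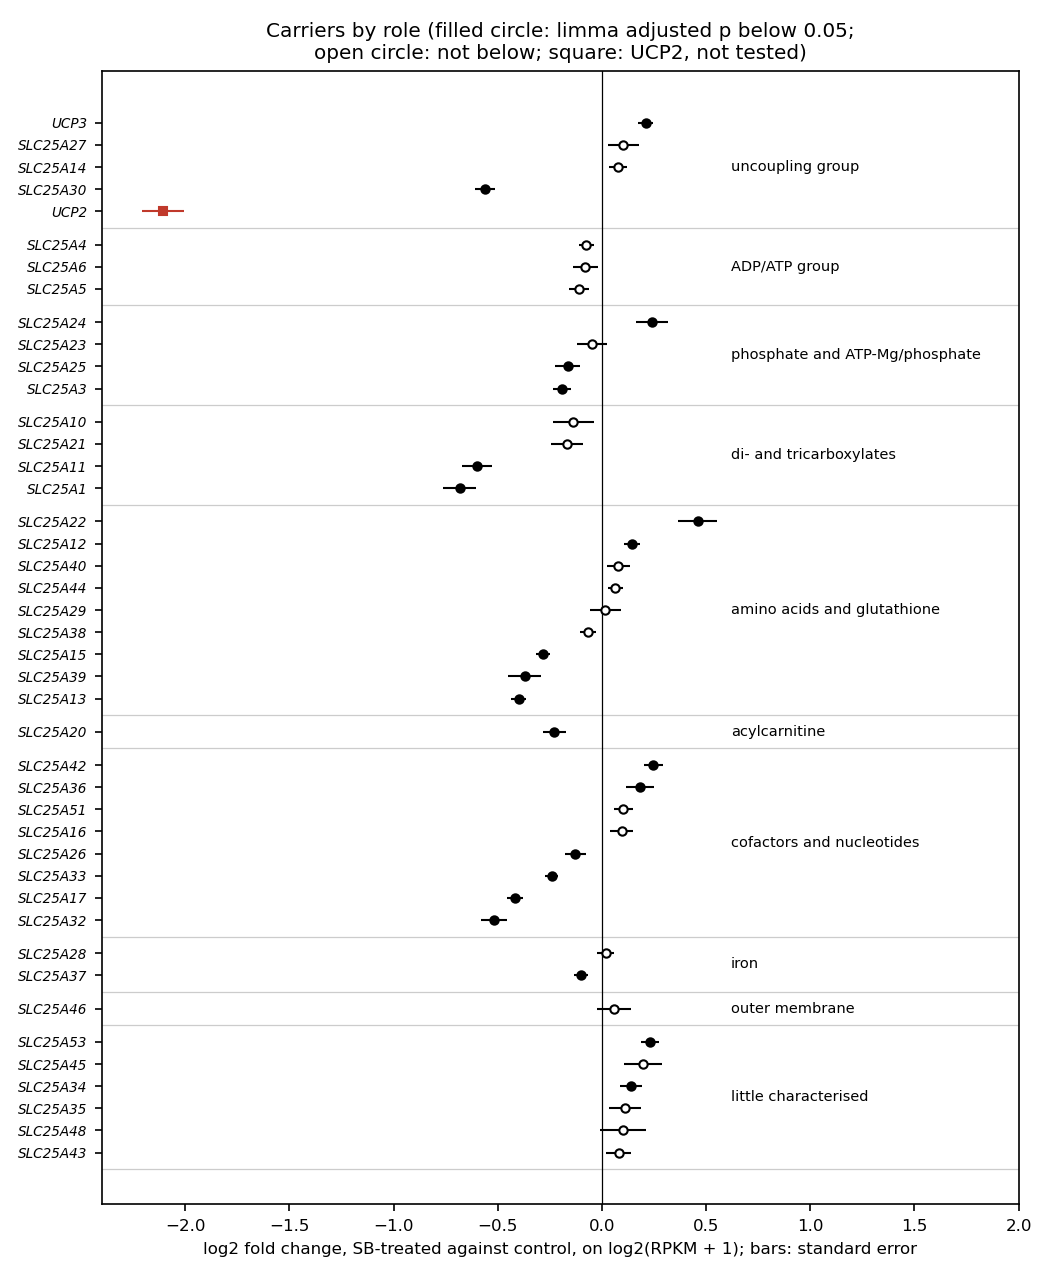
Log2 fold change of 43 of the 44 carriers, SB-treated against control on log2(RPKM + 1) (horizontal axis), with standard errors, grouped by role. UCP2 at -2.11 lies far to the left of SLC25A1 at -0.68, and SLC25A22 at 0.46 is the highest.

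Summed over the 44 carriers, control samples had 1801 ± 102 RPKM (SD, n = 4), between 1650 and 1866 RPKM, and SB-treated samples had 1564 ± 18.6 RPKM, between 1538 and 1578 RPKM. These sums include UCP2. The TMM factors, 0.957 to 0.969 in control and 1.03 to 1.04 in SB-treated samples, widen the gap between the groups. The 3 most abundant carriers were SLC25A5, SLC25A3 and SLC25A6, in this order in all 8 libraries. They made up 55.3% to 56.6% of the sum in control samples and 58.4% to 59% in SB-treated samples. In both groups 2 carriers, SLC25A34 and UCP3, were under 1 RPKM, 17 were between 1 and 10 RPKM in control samples, and 21 between 10 and 100 RPKM. The median carrier had 11.1 RPKM in control and 11.2 RPKM in SB-treated samples.

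**Figure D4:**
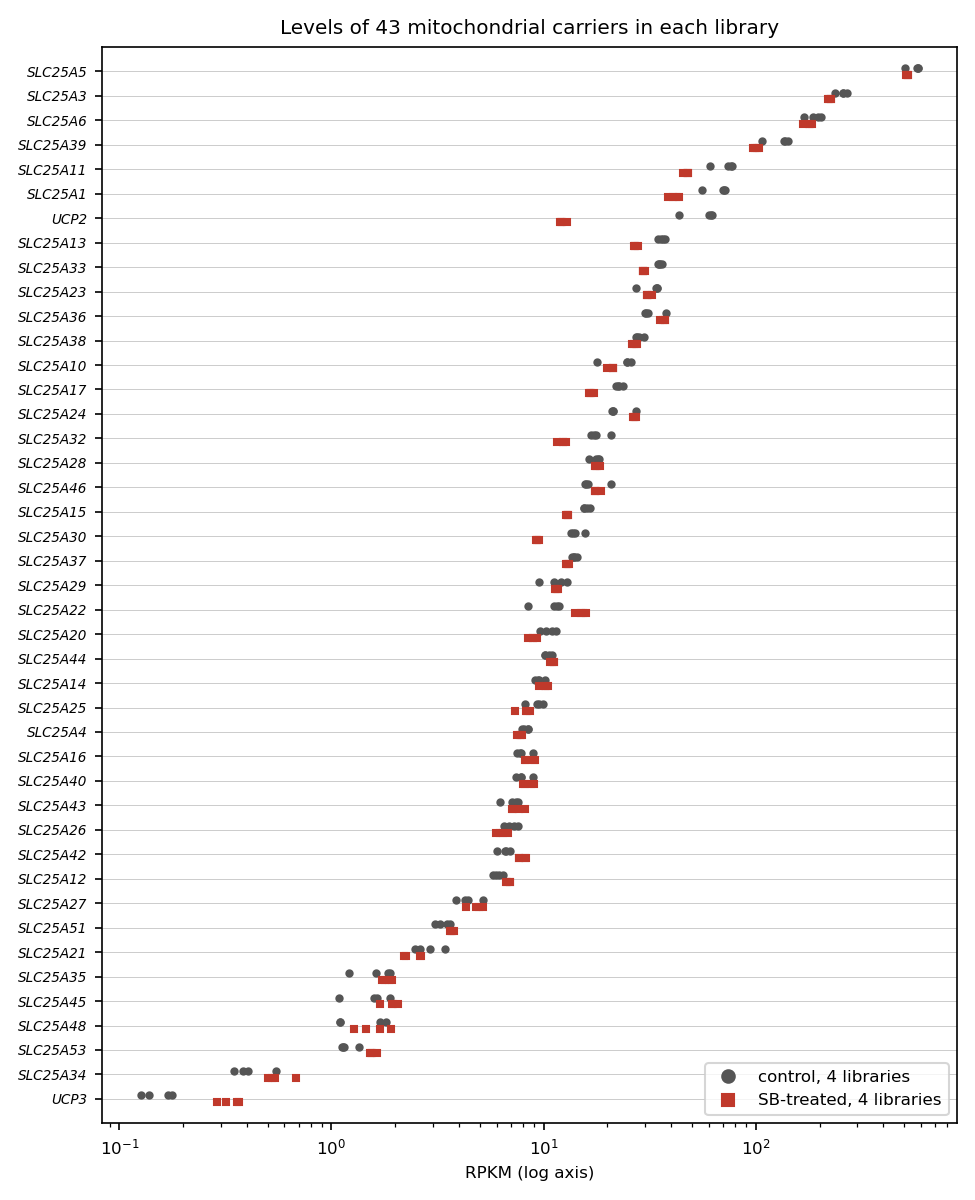
RPKM of 43 of the 44 carriers (log axis) in the 4 control (circles) and 4 SB-treated (squares) libraries, ordered by control mean. SLC25A5 is at the top with means of 561 and 519 RPKM, UCP3 at the bottom, and the UCP2 squares are shifted far to the left.

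The ADP/ATP carriers, which exchange cytosolic ADP for ATP made in the matrix, were not called in either direction, 0 of 3 by limma on log2(RPKM + 1) and 0 of 3 by voom, and 1 of them, SLC25A5, had an unadjusted p-value below 0.05. SLC25A5, the isoform of growing cells, had 506, 576, 583 and 580 RPKM in control samples and 511, 525, 515 and 525 RPKM in SB-treated samples. Control replicate 1 lay below all SB-treated samples and the other 3 control samples above them, and the difference was -0.11 (SE 0.049, limma adjusted p = 0.0702). SLC25A6, which is expressed in most tissues, had 169, 196, 203 and 186 RPKM in control samples and 167, 185, 180 and 179 RPKM in SB-treated samples. Its groups overlapped through control replicate 1 as well, with a difference of -0.08 (limma adjusted p = 0.257). SLC25A4, the heart and muscle isoform, had 7.87, 8.4, 8.11 and 8.48 RPKM in control samples and 7.86, 7.75, 7.49 and 7.87 RPKM in SB-treated samples, with a difference of -0.08 (limma adjusted p = 0.0865). Without control replicate 1 all 3 were called lower, SLC25A5 at -0.16 (adjusted p = 0.000224), SLC25A6 at -0.13 (adjusted p = 0.0188) and SLC25A4 at -0.09 (adjusted p = 0.0126). The direction was not stable to scaling: without the TMM factors SLC25A6 was at 0.02 and SLC25A4 at 0.02, and with the GC content and length correction SLC25A5 was at 0.07, SLC25A6 at -0.13 and SLC25A4 at -0.11, the latter 2 then called. The level of SLC25A6 per length is uncertain, since the authors' counted length of 2968 bases exceeds the 1553 exon bases of this gene, which lies in the region shared by X and Y. For SLC25A5, 14.8% of stretches of 50 bases also occur in its antisense RNA or in pseudogenes.

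The phosphate carrier SLC25A3, which brings in phosphate for ATP synthesis, fell by 0.19 (SE 0.043, limma adjusted p = 0.00297), from 237 to 270 RPKM in control samples to between 220 and 227 RPKM in SB-treated samples. This call was lost without the TMM factors (-0.09, adjusted p = 0.107) and with the GC content and length correction (-0.04, adjusted p = 0.579). The calcium-regulated ATP-Mg/phosphate carriers went different ways. SLC25A24 had 27.3 RPKM in control replicate 1 and 21 to 21.2 RPKM in the other control samples, and 26.3 to 27.4 RPKM in the SB-treated samples. Its rise of 0.24 (limma adjusted p = 0.0191) was 0.33 without control replicate 1, and was no longer called without control replicate 2, 3 or 4 (0.21, adjusted p between 0.0529 and 0.0555). SLC25A25 fell from 8.2 to 9.95 RPKM in control samples to between 7.37 and 8.61 RPKM in SB-treated samples, with groups that overlapped (-0.17, limma adjusted p = 0.0392), a call that 6 of the 8 single-library omissions removed (adjusted p between 0.0576 and 0.112) and that was lost without the TMM factors (-0.071, adjusted p = 0.347). SLC25A23 had 27.2 to 34.3 RPKM in control and 30.6 to 32.5 RPKM in SB-treated samples and was not called (-0.05, adjusted p = 0.581). Leaving out control replicate 1, it was called at -0.13 (adjusted p = 0.00243), and without the TMM factors it was at 0.055.

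Among carriers of di- and tricarboxylates, SLC25A1 and SLC25A11 fell. SLC25A1, which exports citrate for lipid synthesis, had 55.6, 71.1, 71.7 and 70.4 RPKM in control samples and 38.7, 43.4, 42.1 and 40.9 RPKM in SB-treated samples. The groups did not overlap, with control replicate 1 the lowest control sample, and the level fell by 0.68 on the log2 scale (SE 0.08, limma adjusted p = 5.41e-05), or 1.63-fold. SLC25A11, the oxoglutarate carrier of the malate-aspartate shuttle, had 60.8, 76.7, 74.4 and 76.9 RPKM in control samples and 45.6, 47.8, 47.4 and 47.7 RPKM in SB-treated samples. Again every SB-treated sample was below every control sample, and the level fell by 0.599 on the log2 scale (SE 0.071, limma adjusted p = 5.77e-05), or 1.53-fold. Both calls held under all alternatives. SLC25A10, the dicarboxylate carrier, had 17.8 RPKM in control replicate 1, 24.7 to 25.9 RPKM in the other control samples and 19.8 to 21.3 RPKM in SB-treated samples. It was not called with all libraries (-0.14, adjusted p = 0.257) and was called without control replicate 1 (-0.26, adjusted p = 8.74e-05). For this gene 62% of the stretches of 50 bases are shared with an overlapping gene on the same strand. SLC25A21, the oxodicarboxylate carrier of lysine breakdown, was at 2.47 to 3.43 RPKM in control and 2.2 to 2.64 RPKM in SB-treated samples (-0.17, adjusted p = 0.0845). Without control replicate 1 the difference was -0.098, and without control replicate 2 it was -0.215 and called (adjusted p = 0.0383), while 43.5% of its stretches are shared with genes on the opposite strand.

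Of 9 amino acid and glutathione carriers with a row, 2 rose (22.2%) and 3 fell (33.3%), beside 33% and 32.6% of all genes. SLC25A22, a glutamate carrier, had the largest rise among the carriers on the log2(RPKM + 1) scale, though not by fold, from 8.42, 11.6, 11.2 and 11.8 RPKM in control samples to 14.1, 15.4, 15.8 and 15 RPKM in SB-treated samples. The groups did not overlap, and the rise was 0.46 (SE 0.092, limma adjusted p = 0.00159) and 0.36 without control replicate 1. The aspartate-glutamate carriers, which serve the malate-aspartate shuttle, moved in opposite directions. SLC25A12, the isoform of brain and muscle, rose from 5.76 to 6.42 RPKM in control samples to 6.64 to 6.98 RPKM in SB-treated samples (0.14, limma adjusted p = 0.00805). SLC25A13, the liver isoform, fell from 34.7 to 37.4 RPKM to between 26.6 and 27.8 RPKM (-0.40, limma adjusted p = 9.58e-06). Each change left the groups without overlap and was called under all alternatives. SLC25A39, a glutathione importer, fell from 107 to 142 RPKM to between 96.8 and 104 RPKM (-0.37, limma adjusted p = 0.00264), while its paralog SLC25A40 was not called (0.08, adjusted p = 0.236). SLC25A40 was called without control replicate 1 (0.13, adjusted p = 0.0156). SLC25A15, the ornithine carrier of the urea cycle, fell from 15.5 to 16.5 RPKM to between 12.7 and 13 RPKM (-0.28, limma adjusted p = 6.2e-05). The differences of SLC25A44, a carrier of branched-chain amino acids, SLC25A29, a carrier of basic amino acids, and SLC25A38, a glycine carrier, were 0.065, 0.016 and -0.07, and none was called.

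SLC25A20, which exchanges acylcarnitine for carnitine in fatty acid oxidation, fell from 9.59 to 11.5 RPKM in control samples to between 8.43 and 9.31 RPKM in SB-treated samples (-0.23, limma adjusted p = 0.00417). The groups did not overlap. The call was lost without the TMM factors (-0.13, adjusted p = 0.0594) and with the GC content and length correction (-0.11, adjusted p = 0.0696).

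Of 9 carriers of cofactors and nucleotides, 2 rose (22.2%) and 5 fell (55.6%), beside 33% and 32.6% of all genes. SLC25A32, a carrier of folate and flavin, had 20.7, 17.6, 16.7 and 17.2 RPKM in control samples and 12.8, 12.3, 11.6 and 12.4 RPKM in SB-treated samples. The groups were apart, and the level fell by 0.52 on the log2 scale (SE 0.063, limma adjusted p = 7.35e-05). Without control replicate 1 the difference was -0.453. Its count is uncertain, since 97.6% of its stretches of 50 bases are shared with other annotated genes, an overlapping gene on the same strand among them. SLC25A17, a peroxisomal carrier of coenzyme A and related nucleotides, fell from 22 to 23.8 RPKM to between 16.3 and 17.3 RPKM (-0.42, limma adjusted p = 9.25e-06). SLC25A42, a coenzyme A carrier, rose from 6 to 6.93 RPKM to between 7.64 and 8.24 RPKM (0.25, limma adjusted p = 0.00107), whereas its relative SLC25A16 was not called (0.10, adjusted p = 0.149), although it was without the TMM factors (0.19, adjusted p = 0.0102), without control replicate 1 (0.14, adjusted p = 0.00964) or with the GC content and length correction (0.25, adjusted p = 0.000151). The pyrimidine nucleotide carriers moved in opposite directions. SLC25A33 fell from 34.7 to 36.1 RPKM to between 29.5 and 30.2 RPKM (-0.24, limma adjusted p = 9.94e-05), a call lost with the GC content and length correction (-0.05, adjusted p = 0.0664). SLC25A36 had 37.7 RPKM in control replicate 1, 30.1 to 30.9 RPKM in the other control samples and 35.5 to 37.4 RPKM in SB-treated samples. Its rise (0.18, limma adjusted p = 0.0339) was 0.26 without control replicate 1, and 6 of the 8 single-library omissions removed the call (adjusted p between 0.0679 and 0.0902). SLC25A26, the S-adenosylmethionine carrier, fell by 0.13 (limma adjusted p = 0.0497) with groups that overlapped, a call lost under 12 of the 15 alternatives, among them 6 of the 8 single-library omissions (adjusted p between 0.0671 and 0.137). SLC25A51, the NAD carrier, was at 0.10 (adjusted p = 0.0659), and was called without control replicate 4 (0.13, adjusted p = 0.0293). Shared stretches make up 41.6% of SLC25A51, in pseudogenes among others.

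The iron carriers, mitoferrins, differed in the test. SLC25A37, the erythroid form, fell by 0.10 (limma adjusted p = 0.02), from 13.6 to 14.4 RPKM to between 12.7 and 13.2 RPKM. The call was lost without the TMM factors (-0.003, adjusted p = 0.933), without control replicate 2 or SB-treated replicates 2 or 3 (adjusted p between 0.0527 and 0.0616) and with the GC content and length correction, where the sign turned (0.019, adjusted p = 0.547). SLC25A28, the form of other tissues, was not called (0.019, adjusted p = 0.698). SLC25A46, which sits in the outer membrane and acts on mitochondrial shape, had 20.8 RPKM in control replicate 1, 15.7 to 16.2 RPKM in the other control samples and 17.4 to 18.6 RPKM in SB-treated samples, with a difference of 0.06 (adjusted p = 0.541), or 0.15 (adjusted p = 0.00157) without control replicate 1.

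Of 6 little characterised carriers, 2 rose (33.3%, beside 33% of all genes) and 0 were called lower. SLC25A53 rose from 1.12 to 1.35 RPKM to between 1.52 and 1.64 RPKM (0.23, limma adjusted p = 0.000911), and its groups did not overlap. SLC25A34 had 0.382, 0.546, 0.346 and 0.406 RPKM in control samples and 0.542, 0.524, 0.684 and 0.504 RPKM in SB-treated samples. These groups overlapped, and the rise of 0.14 (limma adjusted p = 0.0426) was lost under 6 of 8 omissions of a single library (adjusted p between 0.0567 and 0.123) and with the GC content and length correction (0.093, adjusted p = 0.154). The differences of SLC25A35, SLC25A43, SLC25A45 and SLC25A48 lay between 0.08 and 0.20 and were not called. Without control replicate 1 they were 0.026 for SLC25A35, 0.11 for SLC25A43, 0.103 for SLC25A45 and 0.035 for SLC25A48. SLC25A45 was called without control replicate 3 (0.26, adjusted p = 0.0275).

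Several substrates are served by a pair of related carriers, and the ratio within a library does not depend on how libraries are scaled. In all, 12 such pairs were compared, of which 5 had ratios that did not overlap between the groups, chosen after the values were seen, so the ratios are given with no test. No background share of gene pairs is given. Among single genes, 31% had groups apart with higher and 30.5% with lower SB-treated values, so 5 of 12 is not read as a result about the carriers. SLC25A12 was 0.165 to 0.176 of SLC25A13 in control samples and 0.238 to 0.259 in SB-treated samples. SLC25A14 was 0.64 to 0.702 of SLC25A30 in control samples and 1.03 to 1.13 in SB-treated samples. SLC25A33 was 0.959 to 1.18 of SLC25A36 in control samples and 0.79 to 0.832 in SB-treated samples. The other two were SLC25A28 over SLC25A37 (1.18 to 1.3, then 1.35 to 1.4) and SLC25A23 over SLC25A25 (3.31 to 3.65, then 3.67 to 4.21). The ratios of the groups overlapped for SLC25A23 over SLC25A24, SLC25A24 over SLC25A25, SLC25A39 over SLC25A40, SLC25A16 over SLC25A42 and all 3 pairs of ADP/ATP carriers, for example 2.87 to 3.13 for SLC25A5 over SLC25A6 in control samples and 2.84 to 3.07 in SB-treated samples.

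Carrier proteins are made in the cytosol and enter through the outer membrane pore, small chaperones between the membranes and the inner membrane insertase. The list of import genes also held subunits of the presequence translocase, which takes in other proteins. Of 20 listed genes, 18 had a row under the listed symbol, and TOMM70 and TIMM29 had none. Older symbols were not searched. Of the 18, 17 were called lower and 0 higher by limma, with a median difference of -0.43. All 18 differences were below 0, voom gave the same counts, and 0 were higher at an unadjusted p-value below 0.05. By comparison, 32.6% of all genes were called lower. Of the 14 genes of the pore, chaperones and insertase alone, 13 were called lower (median -0.431), and so were all 4 of the presequence translocase (TIMM17A, TIMM17B, TIMM23 and TIMM50, median -0.372). The outer membrane receptor TOMM20 fell from 254 ± 14.3 to 164 ± 3.88 RPKM (-0.63, limma adjusted p = 2.72e-06), and the chaperone TIMM10 from 45.4 ± 2.14 to 26.7 ± 0.777 RPKM (-0.74, limma adjusted p = 9.42e-07; SD, n = 4). The pore subunits TOMM5 (-0.55) and TOMM40 (-0.44), the receptor TOMM22 (-0.48), the small subunit TOMM6 (-0.47), the chaperones TIMM8A (-0.425), TIMM8B (-0.45), TIMM9 (-0.32) and TIMM13 (-0.39), the insertase TIMM22 (-0.31) and the presequence translocase subunits TIMM23 (-0.475) and TIMM50 (-0.515) also fell. TIMM10B was not called (-0.07, adjusted p = 0.235). Without the TMM factors 14 of the 18 were called lower, and with the GC content and length correction 15 lower and 1 higher.

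Other paths through the mitochondrial membranes, with symbols outside the rule that chose the carriers, were described the same way. That rule goes by symbol, so relatives of the carriers under other names are not excluded from this list. Of 24 such genes, 23 had a row under the listed symbol. Of these, 4 (17.4%) were called higher and 14 (60.9%) lower, with a median difference of -0.23, beside 33% and 32.6% of all genes. Without the TMM factors 5 were called higher and 10 lower (median -0.125), and with the GC content and length correction 6 higher and 12 lower (median -0.141). SFXN2, a sideroflexin, fell from 44.5 ± 1.94 to 18.4 ± 0.564 RPKM (-1.23, limma adjusted p = 7.77e-08; SD, n = 4). The serine carrier SFXN1 (-0.445), the insertase MTCH2 (-0.565), the cholesterol-binding protein TSPO (-0.59), the pyruvate carrier subunits MPC1 (-0.32) and MPC2 (-0.36), the porins VDAC1 (-0.33) and VDAC2 (-0.36) and the calcium uptake regulator MICU2 (-0.34) fell as well. The sodium-calcium-lithium exchanger SLC8B1 (0.51), SFXN5 (0.445) and MICU3 (0.355) rose. The lists were not tested against each other.

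**Figure D5:**
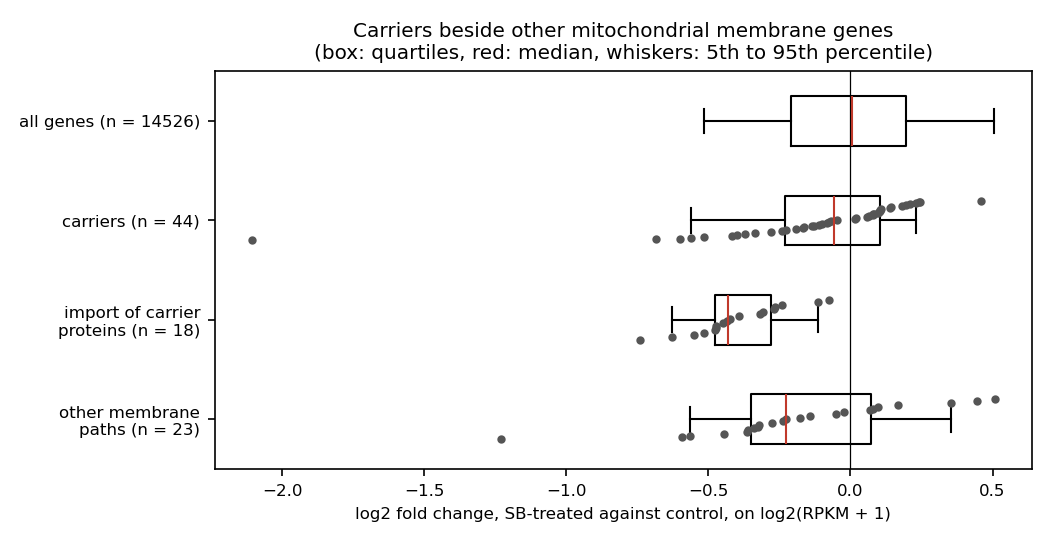
Log2 fold change on log2(RPKM + 1) (horizontal axis) of all 14526 genes, 44 carriers, 18 import genes and 23 genes of other membrane paths, as quartile boxes with the median in red, whiskers to the percentiles named in the title and one point per gene in the 3 lists. Medians are 0.005, -0.06, -0.43 and -0.23.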

How the data were processed

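RNA-seq of 8 samples (4 control, 4 SB-treated) was analysed from the authors' table of processed values. The authors mapped reads to hg38 with TopHat2 2.1.0, counted them per gene with featureCounts 1.5.0, set a floor of more than 1 CPM in 2 or more samples, applied TMM scaling in edgeR 3.16.5 and deposited RPKM values for 14526 genes. The deposited log2 fold change, mean log2 CPM, p-value and FDR columns hold the authors' own comparison and were not used. The number of unused columns of per-sample values was 0. The design foresaw this unit, so limma was applied in place of the authors' count model.

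The RPKM values were divided by the worth of 1 read, which gave whole reads and a whole counted length for 100% of genes (tolerance 0.02 bases) and between 36990091 and 44878446 reads per library. The counting setting for strand is not given in the sources used here, so overlapping genes on opposite strands cannot be told apart. Log2(RPKM + 1) was compared with lmFit and eBayes of limma 3.58.1 in R 4.3.3, with Benjamini-Hochberg adjustment over all genes and no covariate, and the fit was tested on simulated data. Tables and plots were made with Python 3.11.15. Gene positions, shared stretches of 50 bases and GC content are from GENCODE release 44, with a GC value for 97.2% of genes.

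Every carrier is counted, and the values of 1 carrier and 1 marker are not reported here. Values per sample are given for the uncoupling and ADP/ATP groups and for carriers with an adjusted p-value below 0.05 and an absolute difference of at least 0.5, and for others where a result turns on single libraries. Genes of the import and membrane lists are named when called with an absolute difference of at least 0.3, or as the single gene not called. The carriers and lists were chosen with earlier results of these data known. Alternatives were a pseudocount of 0.1, no TMM factors, a mean of at least 1 RPKM, the replicate block, an intensity trend, voom on the recovered reads, leaving out each library, and, chosen after seeing the data, a correction for GC content and length.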

Additional observations from a re-analysis of the deposited data

Results flagged for a closer look

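Within each group of 4, the highest and lowest log2(RPKM + 1) of every carrier were examined for a single far value, measured as its gap to the nearest other sample divided by the range of the group. Of 88 groups, 14 had a share above Dixon's critical value for 4 samples, where chance alone gives about 1 in 20 groups, or 4.4. Control replicate 1 was the far sample in 12 of them. It was the lowest control sample for UCP2 (0.923), SLC25A1 (0.933), SLC25A5 (0.917), SLC25A10 (0.871), SLC25A11 (0.858), SLC25A22 (0.844), SLC25A23 (0.961) and SLC25A39 (0.863). It was the highest control sample for SLC25A24 (0.956), SLC25A36 (0.885), SLC25A46 (0.895) and SLC25A53 (0.865). Among SB-treated samples, replicate 3 was high for SLC25A33 (0.921) and replicate 1 was low for SLC25A10 (0.918). The part of library composition in these values was not tested.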

How the results depend on the processing

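Carriers called higher numbered 8 in the main comparison, 17 without the TMM factors and 14 with the GC content and length correction, and the cause was not tested. Leaving out each library gave between 6 and 12 carriers called higher, between 13 and 21 called lower, between 4311 and 5459 genes called higher and between 4285 and 5511 called lower. Control replicate 1 decided the upper end of the carrier counts. Without it SLC25A28 was at -0.013 and SLC25A29 at -0.061, both reversed. Leave-one-out differences ranged from -0.013 to 0.036 for SLC25A28 and from -0.061 to 0.072 for SLC25A29. The sign also turned for SLC25A23 (0.055), SLC25A38 (0.034), SLC25A4 (0.018) and SLC25A6 (0.024) without the TMM factors, and for SLC25A29 (-0.062), SLC25A38 (0.015), SLC25A37 (0.019) and SLC25A5 (0.07) with the GC content and length correction. UCP2 stayed between -2.23 and -2.007 in all 15 alternatives. Replicate numbers are shared by both groups. The deviations of same-numbered samples correlated at 0.38, 0.327, 0.173 and -0.16, against a mean of -0.0541 for the other pairs. These values do not settle whether the numbers pair the samples. The main comparison therefore has no block, and the block is given as an alternative. With the replicate block, 7 carriers were called higher and 17 lower, and 4885 genes higher and 4894 lower, against 4787 and 4740 genes without it. SLC25A34 lost its call and SLC25A21 gained one (-0.167, limma adjusted p = 0.0293). Low read numbers limit UCP3 most, with 18 to 54 reads per library.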
